A study of Homo sapiens with 12 samples.

Results

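The 35 genes described here are the human N-glycosylation genes around the step that tunicamycin blocks: the enzymes that make the dolichol-linked sugar, the oligosaccharyltransferase that moves it to protein, and the first enzymes that trim or remove it. They were chosen by name, out of 20033 protein-coding genes of GENCODE release 44, by a rule that uses no measured value, though with earlier results of these data known. Open chromatin was measured by ATAC-seq, in which the transposase Tn5 cuts accessible DNA, in KO-52 cells, an acute myeloid leukemia line with mutations on both CEBPA alleles. The cells carried an empty vector (EV), the full-length C/EBPα isoform p42 or the short isoform p30, and were given either the vehicle DMSO or tunicamycin (Tm, 2 µg/mL for 8 h). Each of the 6 conditions had 2 replicates, but the deposited data are 1 list of peaks per condition, called on pooled replicates, so no spread between replicates and no test between conditions could be had. The labels name the cells by vector alone, and the study describes its ATAC-seq KO-52 cells as transduced, the route it gives for long-term expression of p42 and p30 as ERT2 fusions in GFP-sorted cells.

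N-glycosylation begins on the membrane of the endoplasmic reticulum, where DPAGT1 transfers N-acetylglucosamine phosphate to the lipid dolichol phosphate. Tunicamycin occupies DPAGT1, so the sugar tree cannot be started, newly made glycoproteins misfold and the unfolded protein response is switched on. Sugars are then added by the ALG enzymes, at first on the cytosolic face and later inside the lumen, and the finished tree is placed on asparagine residues by the oligosaccharyltransferase.

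A region of a member was a merged stretch with a peak in at least 1 list that lay within its gene body or 10 kb of it (genome build hg38), and a promoter was the 1 kb on either side of any annotated start site. The 35 members held 392 regions of the 214164 in the windows of coding genes, with none shared by 2 members. A member had between 2 regions (DOLK) and 34 (TUSC3), with a median of 10.0 against 9 for coding genes. Of these regions, 69 lay at the promoter of another coding gene and 189 in the window of one, so a peak cannot be assigned to the member alone. The height of a peak is given as the tags stacked at its summit, solved from the deposited fold enrichment and p-value, and as its percentile by −log10 q in its own list.

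The promoters that carry the points below are shown first, as the 250 bases before the start site on the strand of the gene (RefSeq, GRCh38.p14). DPAGT1 is printed as the tunicamycin target, and DOLK and DAD1 because they hold motifs that are more frequent in the members than in coding genes. For ALG12 only the stretch around its endoplasmic reticulum stress element (ERSE) is given. Capitals mark GGGCGG (SP1 box), AAGATGGCG (YY1) and GCGCATGCG (NRF1) on either strand and, in ALG12, the whole ERSE.
DPAGT1 promoter, chr11:119101854-119102103, minus strand: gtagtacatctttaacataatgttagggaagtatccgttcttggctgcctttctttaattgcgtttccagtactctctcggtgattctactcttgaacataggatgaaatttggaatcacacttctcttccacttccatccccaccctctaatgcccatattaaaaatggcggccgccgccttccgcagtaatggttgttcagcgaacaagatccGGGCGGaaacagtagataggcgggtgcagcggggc
DOLK promoter, chr9:128947604-128947853, minus strand: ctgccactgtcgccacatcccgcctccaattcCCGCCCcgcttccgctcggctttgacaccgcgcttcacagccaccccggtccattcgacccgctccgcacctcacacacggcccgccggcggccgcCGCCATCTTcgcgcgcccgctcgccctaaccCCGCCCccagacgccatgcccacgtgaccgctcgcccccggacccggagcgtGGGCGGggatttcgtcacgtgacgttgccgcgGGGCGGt
DAD1 promoter, chr14:22589225-22589474, minus strand: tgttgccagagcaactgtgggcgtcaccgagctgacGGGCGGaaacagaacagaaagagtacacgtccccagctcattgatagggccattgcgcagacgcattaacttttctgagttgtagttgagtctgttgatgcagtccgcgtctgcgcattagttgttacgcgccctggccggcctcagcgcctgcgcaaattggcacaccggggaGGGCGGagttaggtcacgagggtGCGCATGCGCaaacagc
ALG12 promoter stretch, chr22:49918524-49918602, minus strand: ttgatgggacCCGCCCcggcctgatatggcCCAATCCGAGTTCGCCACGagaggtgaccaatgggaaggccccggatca

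At the promoters, N-glycosylation genes were open in every condition. A promoter region had a peak in all 6 lists in 34 of the 35 members, which is 97.1% (95% Wilson interval 85.5 to 99.5), against 75.7% of coding genes. This comparison was not matched by number of regions, and 3060 of the 20033 coding genes had no promoter peak in any list. The exception was TUSC3, described further on. Of the myeloid markers, which fit the label of the line, 8 of 10 had such a promoter and AZU1 and PRTN3 had a peak in only some lists. None of the 4 erythroid markers had a promoter peak in any list. Promoter peaks in all lists were also found at 3 of 5 T cell, 3 of 4 B cell and 3 of 4 epithelial markers, so an open promoter by itself does not mark the cell type. The main promoter, the region at the canonical start site, was among the stronger peaks of each list: the median percentile of the 34 members ran from 94.5 (p30 Tm) to 96.2 (EV Tm), while that of coding genes with a peak there ran from 88.7 to 90.9. Between 25 and 27 of the 34 members, depending on the list, stood at or above the 90th percentile of all peaks. No matching share over coding genes is given, and their medians lay close to that limit.

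**Figure D1:**
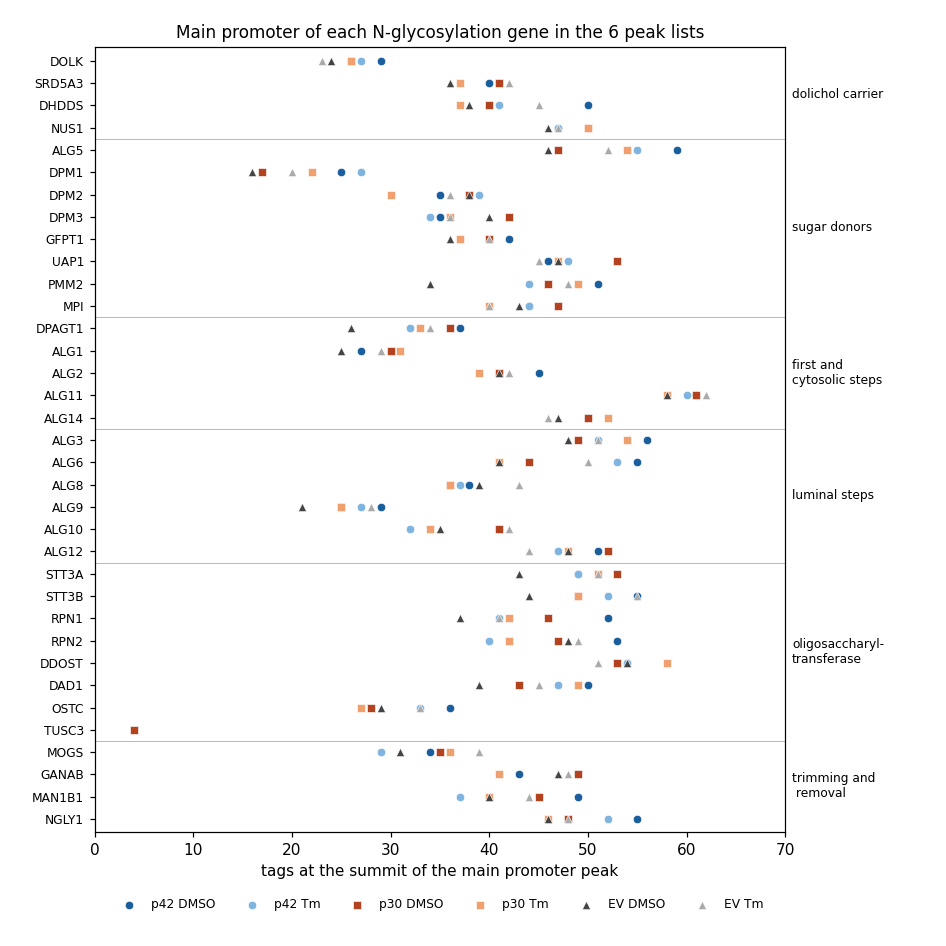
Tags at the summit of the main promoter peak (horizontal axis) of each member, grouped by role, with 1 point for each of the 6 lists (circles p42, squares p30, triangles EV, darker for DMSO and lighter for Tm). ALG11 stands highest with 58 to 62 tags and DPM1 lowest with 16 to 27 among the members with a peak in every list, and TUSC3 has 1 point, at 4 tags.

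DPAGT1, on chromosome 11 (119096025 to 119108331, minus strand), is where the drug acts. Its main promoter peak (119101387 to 119102590), which covers the sequence printed above, was 37 tags high in p42 DMSO, 32 in p42 Tm, 36 in p30 DMSO, 33 in p30 Tm, 26 in EV DMSO and 34 in EV Tm. The EV DMSO value was the lowest, and the other 5 lay within 5 tags of each other. Its fold enrichment was also set relative to the main promoters of coding genes. By that measure it changed with tunicamycin by −0.17 (p42), −0.07 (p30) and 0.28 (EV) on the log2 scale, all under 1.5-fold. EV DMSO was also the shallowest list. Of the 10 regions of DPAGT1, 6 had a peak in all 6 lists.

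The variable regions of DPAGT1 near its start sites were narrow. A promoter region 491 bp past a further start site (119099820 to 119100014) had 30 tags in p42 DMSO, 22 in p42 Tm, 20 in p30 DMSO and 18 in EV Tm, and no peak in p30 Tm or EV DMSO. Another of 100 bp, beside the main promoter and shared with C2CD2L on the opposite strand, had a peak only in p30 Tm (19 tags) and EV DMSO (15 tags). In DPAGT1, then, the list without a peak was not the same from one region to the next.

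The dolichol carrier is made by DHDDS and NUS1, the subunits of the cis-prenyltransferase, saturated with the help of SRD5A3 and phosphorylated by DOLK. All 4 had an open main promoter in every list. NUS1 was steady at 46 to 50 tags, DHDDS ran from 37 (p30 Tm) to 50 (p42 DMSO), SRD5A3 from 36 to 42, and DOLK from 23 to 29. DOLK was the plainest locus, with 2 regions that both had a peak in all 6 lists.

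The sugar donors come from GFPT1 and UAP1 (UDP-N-acetylglucosamine), PMM2 and MPI (mannose phosphates), the DPM1, DPM2 and DPM3 subunits of dolichol-phosphate-mannose synthase, and ALG5 (dolichol-phosphate-glucose). DPM1, the catalytic subunit, had the lowest main promoter peak of the 34 members in every list, level with ALG9 and DOLK in p42 Tm: 25 tags in p42 DMSO, 27 in p42 Tm, 17 in p30 DMSO, 22 in p30 Tm, 16 in EV DMSO and 20 in EV Tm. By fold enrichment the order was not the same, with 9.78 in p42 DMSO, 12 in p42 Tm, 7.91 in p30 DMSO, 10.5 in p30 Tm, 7.71 in EV DMSO and 9.34 in EV Tm, so that p30 Tm stood above p42 DMSO. The DPM3 promoter was lowest in both p42 lists, with 35 and 34 tags in p42 DMSO and Tm against 42 and 36 in p30 and 40 and 36 in EV. PMM2 had 34 tags in EV DMSO and 44 to 51 in the other lists, again with the shallowest list the lowest. The remaining donors had 30 to 39 tags at DPM2, 36 to 42 at GFPT1, 40 to 47 at MPI, 45 to 53 at UAP1 and 46 to 59 at ALG5.

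Of the cytosolic ALG enzymes, ALG11, a mannosyltransferase, had 61 tags in p42 DMSO, 60 in p42 Tm, 61 in p30 DMSO, 58 in p30 Tm, 58 in EV DMSO and 62 in EV Tm. ALG14, the anchor of the second N-acetylglucosamine transfer, had 46 to 52 tags, ALG2 had 39 to 45, and ALG1, which adds the first mannose, 25 to 31. Of the luminal enzymes, the mannosyltransferases ALG3 and ALG12 had 48 to 56 and 44 to 52 tags, and ALG9 had 21 to 29. The glucosyltransferases ALG6, ALG8 and ALG10 had 41 to 55, 36 to 43 and 32 to 42.

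In the oligosaccharyltransferase, the catalytic subunits STT3A and STT3B had 43 to 53 and 44 to 55 tags at their main promoters. The accessory subunits RPN1, RPN2, DDOST and DAD1 lay between 37 and 58 in every list, and OSTC was lower, at 27 to 36. Trimming begins with the glucosidases MOGS (29 to 39 tags) and GANAB (41 to 49) and goes on with the mannosidase MAN1B1 (37 to 49), and NGLY1, which cuts the sugar from misfolded protein, had 46 to 55. The medians of the 6 groups lay between 37.0 and 52.0 tags across all lists. The oligosaccharyltransferase, counted without TUSC3, had the highest median in each list, level with the trimming enzymes in EV DMSO (43.0). It had 52.0 in p42 DMSO, where the other roles had 43.0 to 46.0, and 47.0 in p30 DMSO, where they had 40.5 to 46.5. By percentile the order was different, with the luminal enzymes above the oligosaccharyltransferase in every list but p30 DMSO (96.1 against 97.0). The gap ran from 98.6 against 98.5 in p42 DMSO to 97.0 against 94.8 in EV DMSO. These differences between small groups were not tested.

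TUSC3, an oxidoreductase subunit that has the paralog MAGT1, was the exception. It lies on chromosome 8 (15417215 to 15766649, plus strand) and has the most regions of any member. Its only promoter region was a 59-bp peak of 4 tags in p30 DMSO, at the 0.451 percentile of that list, and the other 5 lists had none. It was not a silent locus as a whole. Of its 34 regions 6 had a peak in all 6 lists, of which a 353-bp intronic one had 30 tags in p42 DMSO, 29 in p42 Tm, 25 in p30 DMSO, 24 in p30 Tm, 24 in EV DMSO and 30 in EV Tm. MAGT1 had a main promoter of 31 to 37 tags.

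Tunicamycin moved no main promoter past 1.5-fold. Ratios of fold enrichment were here centred on the median over the main promoters of coding genes. They were within 1.5-fold in 34 of 34 members in p42, p30 and EV cells. Of coding genes with a main promoter peak in both lists, 1.79%, 1.67% and 1.59% were past it in either direction. At those shares fewer than 1 member would be past it, so the count of 0 does not set the members apart. The medians were 0.00, −0.05 and −0.03 (log2), and the SDs over members 0.17, 0.15 and 0.19, against 0.21 over coding genes in each line. The lowest and highest members were RPN2 (−0.33) and DPM2 (0.43) in p42, GANAB (−0.27) and DPM1 (0.38) in p30, and ALG12 (−0.37) and ALG9 (0.48) in EV cells. Only DPM1 was above 0.2 in all 3 lines (0.27, 0.38 and 0.27), on 16 to 27 tags.

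Nor did a main promoter differ past 1.5-fold between isoforms, with the ratios centred in the same way. No member passed for p42 against p30 in DMSO (2.77% of coding genes), p42 against p30 after Tm (2.85%), p42 against EV (2.97%) or p30 against EV (1.45%). The nearest were DPM3, lower in p42 than in EV by 0.55 on the log2 scale (7.58 against 10.9 in fold enrichment), and MOGS, lower in p42 Tm than in p30 Tm by 0.46 (7.22 against 9.81).

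**Figure D2:**
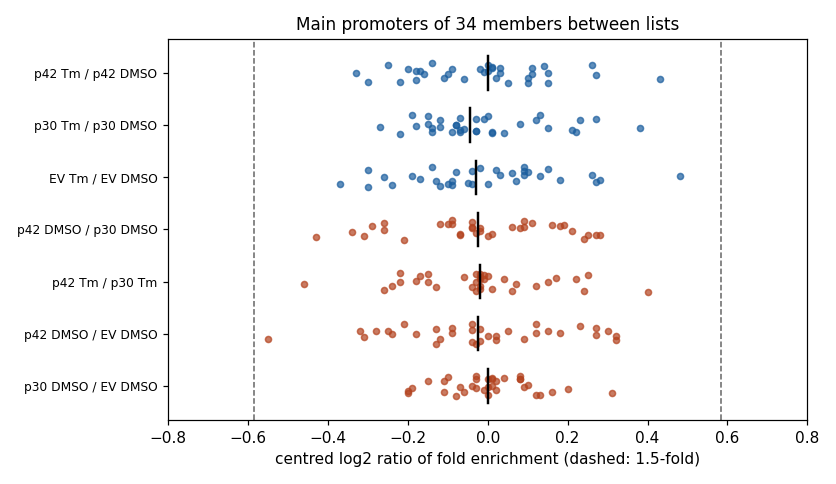
Centred log2 ratio of fold enrichment at the main promoter (horizontal axis) for 34 members in each of 7 pairs of lists, with 1 point per member, a bar at the median and dashed lines at 1.5-fold. The points lie between −0.55 and 0.48, inside the dashed lines, and the medians between −0.05 and 0.00.

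Across all 392 regions, 157 (40.1%, interval 35.3 to 45.0) had a peak in all 6 lists and 120 (30.6%, 26.3 to 35.3) in a single one. The matching shares over regions of coding genes were 35.6% and 31.7%, and over other coding genes with the same number of regions as each member 40.6% and 28.4%, so the members were like genes of their own size. Regions in all lists were strong, with a median of 30.0 tags at the highest summit and a width of 406 bp, and those in 1 list weak, with 6 tags and 69.5 bp. Promoter regions of the members had a peak in all lists in 52 of 82 cases (63.4%, coding promoters 55.0%), and those outside any coding promoter in 78 of 265 (29.4%, coding 31.1%). By role, the share in all lists ran from 36.7% in the oligosaccharyltransferase (44 of 120) to 45.2% in the trimming enzymes (19 of 42). Other coding genes with the same number of regions had 38.1% and 42.7%, so these roles were like genes of their size.

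The number of regions with a peak was highest in p42 DMSO, with 297 of 392 (75.8%), followed by p42 Tm (245, 62.5%), p30 DMSO (234, 59.7%), p30 Tm and EV Tm (217 each, 55.4%) and EV DMSO (207, 52.8%). Other coding genes with the same number of regions had 74.4%, 63.1%, 61.9%, 56.0%, 58.2% and 57.3% in that order of lists, with EV DMSO above p30 Tm. The estimated depth followed nearly the same order, from 29984896 tags in p42 DMSO to 22249294 in EV DMSO, so depth and condition cannot be told apart in these counts. With a threshold set as if every list had the depth of EV DMSO, p42 DMSO still had the most regions. The numbers were then 287 in p42 DMSO, 244 in p42 Tm, 227 in p30 DMSO and 217 in p30 Tm. EV DMSO had 207 and EV Tm 217. All 35 members had at least 1 region with a peak in every list. Of other coding genes, 97.3% (p30 Tm) to 98.9% (p42 DMSO) had one in a given list, so this does not set the members apart.

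**Figure D3:**
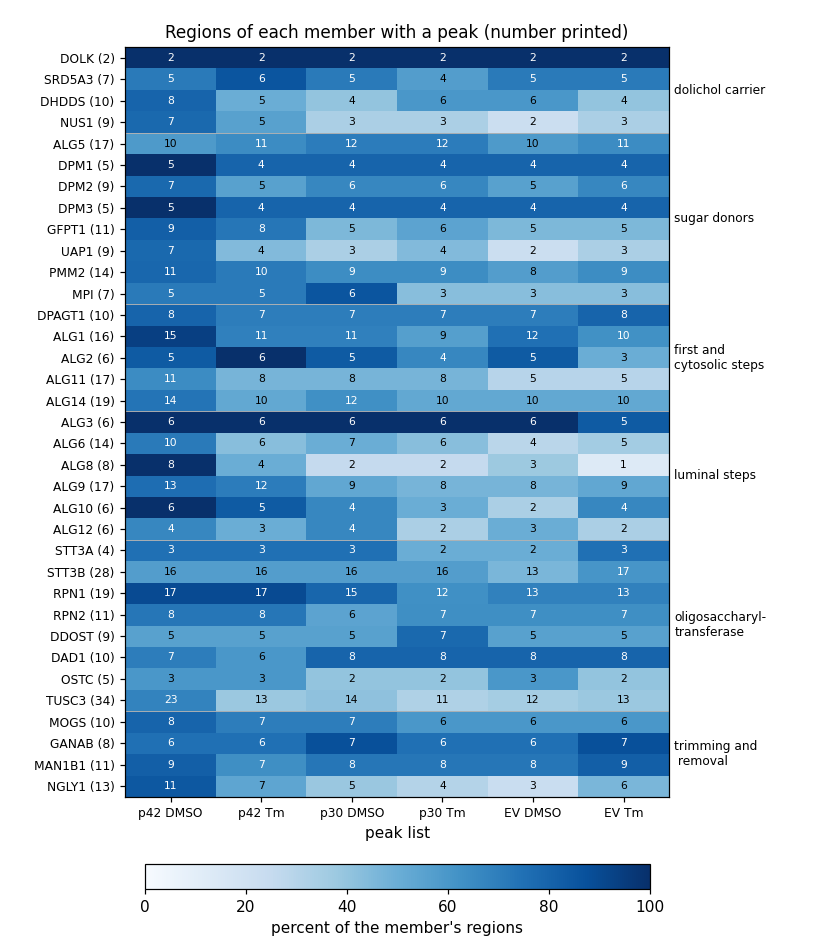
Number of regions with a peak in each list (printed in the cells) for each member, with its total in brackets, and their share of that total as shade. ALG8 falls from 8 of 8 regions in p42 DMSO to 1 in EV Tm, while DOLK has 2 of 2 in every list.

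With tunicamycin, p42 cells gained 31 member regions (7.91%, interval 5.63 to 11), where 8.48% of coding regions were gained, and lost 83 (21.2%, 17.4 to 25.5), where 20.4% were lost. p30 cells gained 30 (7.65%, coding 8.10%) and lost 47 (12%, coding 14.4%). EV cells gained 40 (10.2%, coding 11.2%) and lost 30 (7.65%, coding 9.67%). The coding genes with the same number of regions gained 7.61%, 7.49% and 10.1% and lost 19.0%, 13.4% and 9.16%, all inside the intervals of the members. With a −log10 q of at least 10 in every list, p42 cells gained 4.05% and lost 8.78%, p30 cells gained 5.41% and lost 7.43%, and EV cells gained 7.43% and lost 4.73%. With equal numbers of peaks per list the loss in p42 cells was 13.8% and EV cells lost more (10.4%) than they gained (9.22%). The loss in p42 cells was 19.6% with a threshold set as if every list had the depth of EV DMSO. Thus, in the lists as deposited, the genes of the pathway that tunicamycin blocks gained and lost peaks at about the rate of other genes in each line.

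In DMSO, 96 member regions had a p42 and no p30 peak (24.5%, 20.5 to 29.0), where 24% of coding regions had, and 33 the reverse (8.42%, 6.06 to 11.6, coding 11.1%). With equal numbers of peaks per list these shares were 15.6% and 12.1%, and with a −log10 q of at least 10 they were 13.5% and 4.05%. They were 23.3% and 7.41% with a threshold set as if every list had the depth of EV DMSO. After Tm the counts were 67 (17.1%, coding 16.8%) and 39 (9.95%, coding 9.57%). Against EV in DMSO, 113 regions had a peak in p42 alone of the pair (28.8%, 24.6 to 33.5, coding 26.5%) and 23 in EV alone (5.87%, coding 8.36%). The p30 cells differed less from EV, with 51 (13.0%, coding 13.8%) and 24 (6.12%, coding 8.54%). Other coding genes with the same number of regions had 22.5% and 9.98% for p42 and p30 in DMSO, 15.8% and 8.74% after Tm, 24.8% and 7.63% for p42 and EV, and 12.7% and 8.03% for p30 and EV, each within the interval of the members. By role, the share with a p42 and no p30 peak in DMSO was highest in the dolichol genes (10 of 28) and the luminal enzymes (19 of 57, 33.3%, 22.5 to 46.3, other coding genes 21.9%) and lowest in the oligosaccharyltransferase (24 of 120). The dolichol genes (35.7%, 20.7 to 54.2, other coding genes 20.3%) and the luminal enzymes were above genes of their size here, and the luminal enzymes also for p42 against EV in DMSO (22 of 57, 38.6%, 27.1 to 51.6, other coding genes 24%). In the sugar donors no region had an EV and no p30 peak in DMSO (0 of 77, up to 4.75%, other coding genes 7.80%). The luminal enzymes also had fewer regions with a peak in EV Tm (26 of 57, 45.6%, 33.4 to 58.4, other coding genes 59.1%). These 5 are the comparisons by role in which other coding genes lay outside the interval of the members, among many made, and neighbouring regions of a gene are not independent. Outside promoters, 94 of 265 member regions had a p42 and no EV peak (35.5%, 30.0 to 41.4, coding 28.8%, not matched by number of regions).

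Where both lists of a pair had a peak, the number of member regions past 1.5-fold in height depended on the measure. By fold enrichment, with Tm in p42 cells, 5 of 214 regions were more than 1.5-fold higher and 4 lower, against 3.43% and 4.99% of coding regions. In p30 cells 3 of 187 were higher and 5 lower (coding 3.18% and 4.63%), and in EV cells 6 of 177 were higher and 7 lower (coding 3.83% and 4.0%). For p42 against p30 in DMSO, 10 of 201 were higher and 6 lower (coding 7.92% and 6.49%), and after Tm 8 of 178 each way (coding 7.40% and 5.78%). For p42 against EV, 12 of 184 were higher and 9 lower (coding 8.22% and 6.56%), and for p30 against EV 5 and 6 of 183 (coding 4.21% and 3.58%). By tags over depth, 20 regions in place of 9 were past 1.5-fold with Tm in p42 cells, and 25 in place of 16 for p42 against p30 in DMSO. With Tm, the count was 12 in place of 8 in p30 cells and 16 in place of 13 in EV cells. It was 21 in place of 16 for p42 against p30 after Tm, 31 in place of 21 for p42 against EV and 16 in place of 11 for p30 against EV. By this measure coding regions were not counted, so the members cannot be set against them. With 1 list on each side, a change at a named region has only the counting error of its tags.

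The widest change with tunicamycin was at NGLY1, at an intronic region (chr3:25744392-25744829) with 16 tags in p42 DMSO, 9 in p42 Tm, 21 in p30 DMSO, 5 in p30 Tm, 14 in EV DMSO and 10 in EV Tm. It was lower after Tm in each line, and in p30 cells the tags scaled to depth fell by 1.87 on the log2 scale (95% counting interval −3.63 to −0.42). The 201 bases around its summits, on the plus strand, are printed for that reason.
NGLY1 intronic region, chr3:25744435-25744635, plus strand: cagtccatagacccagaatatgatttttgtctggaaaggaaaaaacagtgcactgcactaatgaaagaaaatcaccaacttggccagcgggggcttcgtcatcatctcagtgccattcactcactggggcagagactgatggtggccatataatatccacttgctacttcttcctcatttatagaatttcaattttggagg

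GANAB had the opposite pattern at an intronic region (chr11:62640779-62640995): 7 tags in p42 DMSO, 16 in p42 Tm, 15 in p30 DMSO, 17 in p30 Tm, 9 in EV DMSO and 20 in EV Tm. Each Tm value was above the DMSO value of its line, by 1.43 on the log2 scale in p42 cells after scaling to depth (0.07 to 2.95). A region downstream of ALG3 (chr3:184241968-184242143) stood out only in EV DMSO, where it had 6 tags against 13 to 18 in the other lists. Its ratio of EV Tm to EV DMSO, 1.24 (−0.19 to 2.88), had an interval that covered 0, as did those of the lowest regions in p42 and EV cells, in SRD5A3 (4 tags in Tm, 8 in DMSO) and ALG5 (5 and 10), and of the highest in p30 cells, in STT3B (11 and 6). The ALG5 region had 8 tags in p42 DMSO, no peak in p42 Tm, and 7 and 8 tags in p30.

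Between isoforms, an intronic ALG9 region (chr11:111819151-111819618) was highest in p42, with 20 tags in p42 DMSO and 14 in p42 Tm against 6 and 8 in p30 and 8 and 11 in EV. The log2 ratio of p42 to p30 in DMSO was 1.56 (0.19 to 3.17). STT3B had the reverse at an intronic region (chr3:31575527-31575740), with 11 and 13 tags in p42 against 18 and 15 in p30 and 19 and 23 in EV. Its ratio of p42 to EV in DMSO was −1.22 (−2.44 to −0.07). These are the most extreme of 177 to 214 regions per pair, for which the intervals make no allowance. The other extremes had intervals that covered 0. They were an STT3B intronic region (13 tags in p42 Tm, 6 in p30 Tm), the GANAB region above for p42 against p30 in DMSO, and the ALG3 region for p42 and p30 against EV. An intronic TUSC3 region had 7 and 5 tags in p42, 8 and 12 in p30, and 5 and 12 in EV. An intronic DAD1 region had 9 tags in p42 DMSO, no peak in p42 Tm, 5 and 6 tags in p30, and 11 and 9 in EV.

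One member region was gained with Tm in all 3 lines, and one was lost in all 3. The gained region belongs to ALG5, 557 bp past a further start site, with 7 tags in p42 Tm, 6 in p30 Tm and 8 in EV Tm and no peak in DMSO; 0.199% of coding regions were gained in this way. The lost region lies downstream of ALG8, with 5 tags in p42 DMSO, 6 in p30 DMSO and 5 in EV DMSO, against 0.487% of coding regions. Both peaks were near the lowest summit of any list, 4 tags. The sequence of the gained region is given since it was the one that opened in each line, and it held none of the 10 motifs searched.
ALG5 region gained with Tm, chr13:36967437-36967561, plus strand: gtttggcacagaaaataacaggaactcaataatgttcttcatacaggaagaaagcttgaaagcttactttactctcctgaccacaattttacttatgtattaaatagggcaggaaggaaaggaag

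A peak in both p42 lists and no other was found at 26 regions of 18 members (6.63%, 4.57 to 9.54), where 4.57% of coding regions, not matched by number of regions, had this pattern. They were ALG2, ALG6, ALG8 (3 regions), ALG9, ALG14 (2), DPM2, DPM3, SRD5A3, NUS1 (3), STT3A, STT3B, RPN1, TUSC3 (2), MOGS, GFPT1 (2), UAP1, PMM2 (2) and NGLY1. The tags ran from 4 to 18 apart from those of MOGS. A further 51 regions had a peak in p42 DMSO alone (13.0%, coding 12.5%). The list p42 DMSO was also the deepest, and the part of depth in these p42-only counts was not tested. For the wider set with a p42 and no p30 peak in DMSO, the share was 24.5% as reported. It was 23.3% with a threshold set as if every list had the depth of EV DMSO.

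The strongest of these regions was in MOGS, the glucosidase that removes the outermost glucose, at −653 bp from a start site, with 25 tags in p42 DMSO and 23 in p42 Tm at percentiles 70.9 and 65.7. The other 4 lists had no peak there, while the main promoter of MOGS beside it was open in all 6. DPM2 is printed with it because its p42-only region held TGATGCAA, a C/EBP-ATF response element (CARE), the sites where a C/EBP protein and ATF4 can pair. DPM2 had 9 tags in p42 DMSO and 8 in p42 Tm there, at the promoter of PIP5KL1 downstream, and the p42-only region of RPN1 had 9 and 7. Capitals mark the element on either strand. The MOGS stretch holds a run of ga. How uniquely reads map there was not tested.
MOGS p42-only region, chr2:74465950-74466176, plus strand: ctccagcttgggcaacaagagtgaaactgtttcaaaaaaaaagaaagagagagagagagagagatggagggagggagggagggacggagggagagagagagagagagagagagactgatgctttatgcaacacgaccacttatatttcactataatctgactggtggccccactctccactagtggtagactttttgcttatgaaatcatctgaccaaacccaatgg
DPM2 p42-only region, chr9:127928799-127928972, plus strand: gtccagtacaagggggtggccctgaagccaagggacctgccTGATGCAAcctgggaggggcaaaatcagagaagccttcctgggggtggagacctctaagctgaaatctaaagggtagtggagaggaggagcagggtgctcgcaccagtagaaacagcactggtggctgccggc

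ALG8, which adds the second glucose, had peaks in a widely varying share of its 8 regions, with 8 in p42 DMSO, 4 in p42 Tm, 2 in p30 DMSO, 2 in p30 Tm, 3 in EV DMSO and 1 in EV Tm. One of its p42-only regions (chr11:78127543-78127836, 12 and 9 tags) lay at a further start site within the gene. In NUS1 the p42-only regions were intronic, 13745, 16911 and 19907 bp past the start, at 4 to 8 tags. In NGLY1 the p42-only region (14 and 18 tags) was 1473 bp past a start site. Their main promoters did not share the pattern.

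The remaining p42-only regions, given as tags in p42 DMSO and then in p42 Tm, were all weak. Among the dolichol genes, NUS1 had 5 and 5, 7 and 4, and 8 and 6 tags at its 3 regions and SRD5A3 8 and 4. Among the sugar donors, GFPT1 had 7 and 6 and 5 and 8, UAP1 9 and 6, PMM2 8 and 5 and 13 and 8, and DPM3 9 and 7. These lay in introns or flanks, with the exception of 1 PMM2 region in an exon. In the cytosolic and luminal enzymes, ALG2 had 8 and 13, ALG14 6 and 6 and 9 and 9, ALG6 13 and 11, ALG9 12 and 9, and the other ALG8 regions 5 and 7 and 7 and 9. In the oligosaccharyltransferase, STT3A had 7 and 4, STT3B 15 and 8, and TUSC3 8 and 6 and 7 and 7. The Tm value was the higher one at ALG2, 2 of the ALG8 regions, 1 GFPT1 region and NGLY1.

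**Figure D4:**
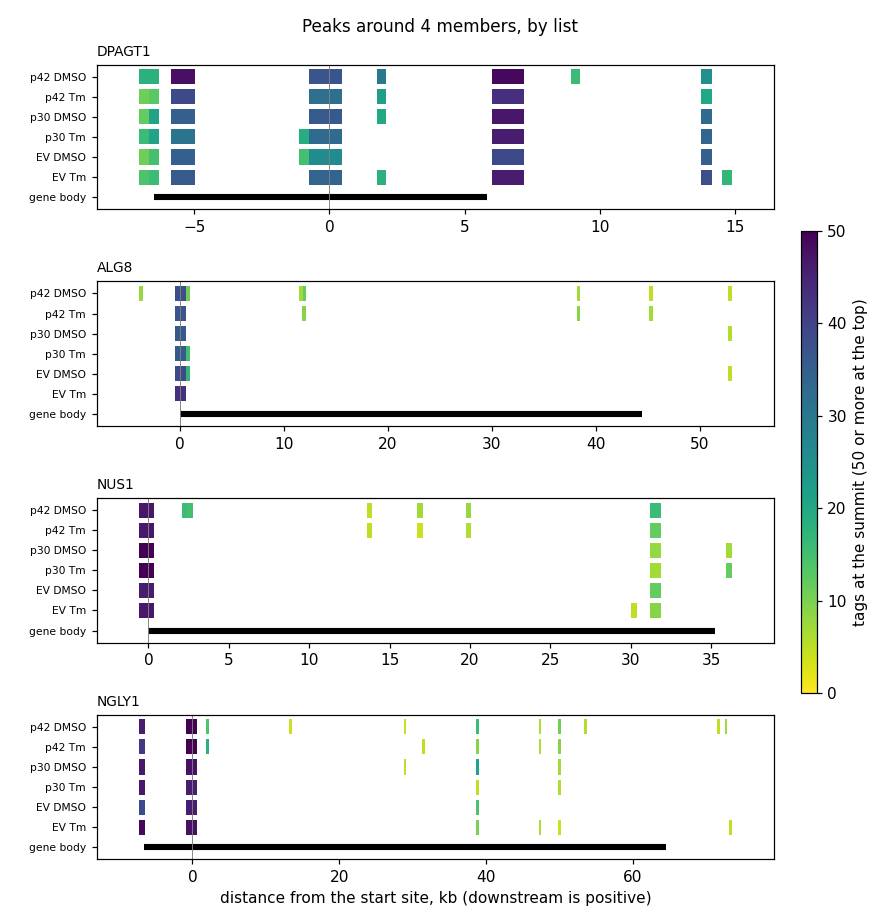
Regions with a peak around DPAGT1, ALG8, NUS1 and NGLY1, by distance from the canonical start site in kb (horizontal axis, downstream positive) and by list (rows), shaded by tags at the summit, with the gene body as a bar and short regions drawn wider than they are. The main promoter is filled in all 6 rows of each gene, and the regions in both p42 rows alone lie away from it.

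Other single-isoform patterns were rare. One region each had a peak in both p30 lists alone (NUS1, 7 and 12 tags, downstream, coding 0.592%) and in both EV lists alone (TUSC3, 6 and 6 tags, intronic, coding 0.532%). An ALG14 exon region lacked a peak only in p42 cells, with 12 tags in p30 DMSO, 8 in p30 Tm and 7 in both EV lists (coding 0.805%). A MAN1B1 promoter region, 279 bp past a start site, lacked one only in p30 cells, with 20 and 15 tags in p42 and 13 and 15 in EV (coding 0.449%). In 4 regions a peak was gained in p42 and lost in p30 cells (1.02%, coding 1.02%), and in 6 the reverse (1.53%, coding 1.24%). The first were in ALG5, MPI, PMM2 and ALG12, the others in DDOST, ALG6, TUSC3, ALG8 and ALG11 (2).

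Among regions that lacked a peak in at least 1 list, the strongest by −log10 q lay downstream of ALG11 (chr13:52087902-52088129), with 18 tags in p42 DMSO, 16 in p42 Tm and 7 in p30 DMSO. An STT3B intronic region had 23 and 17 tags in p42, 9 and 11 in p30 and 12 in EV Tm, and an RPN1 intronic region 24 and 18 in p42 and 9 in EV DMSO. Another 2 STT3B regions lacked a peak only in EV DMSO, with 10, 13, 6, 11 and 6 tags and 8, 13, 6, 6 and 6 tags in the lists from p42 DMSO to EV Tm. These 5 were chosen by their highest value in any list, so which lists are high in them is no result.

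The promoter sequences were searched for 10 motifs in the windows of RefSeq, from 250 bases before to 50 after the start, which matched 30 of the 35 members with 41 windows, some of them overlapping. ALG10, MOGS, RPN1, STT3B and TUSC3 had no window and were not searched in this way. ERSE, CCAAT followed 9 bases later by CCACG, was in ALG12 alone (1 of 30, 3.33%), against 0.133% of 15843 coding genes. The promoter is shared with CRELD2, a stress-induced gene of the endoplasmic reticulum on the opposite strand. In its main peak ALG12 had 51 tags in p42 DMSO, 47 in p42 Tm, 52 in p30 DMSO, 48 in p30 Tm, 48 in EV DMSO and 44 in EV Tm. These tags are not scaled to depth, which fell with Tm in p42 and p30 cells. By centred fold enrichment ALG12 changed with Tm by −0.25 (p42), −0.03 (p30) and −0.37 (EV) on the log2 scale. TGACGTGG, the unfolded protein response element core, was in DHDDS alone of the 30 (coding genes 1.05%).

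No window of a member held TGACGTCA (CRE, coding genes 3.00%), TGATGCAA (CARE, 0.903%), TTGCGCAA (the C/EBP palindrome, 0.252%) or TGACTCA (AP-1, 5.26%), where 0 of 41 windows allows a share of up to 8.57% (Wilson). YY1 (AAGATGGCG) was in 6 members, ALG1, ALG3, ALG11, DOLK, GANAB and NUS1 (6 of 30, coding 3.21%). NRF1 (GCGCATGCG) was in 5, ALG6, ALG8, ALG14, DAD1 and MAN1B1 (16.7%, coding 3.11%), and ETS (CCGGAAG) in 8 (26.7%, coding 16.5%). SP1 boxes (GGGCGG) were in 22 (73.3%, coding 64.3%), and the median GC content of the windows was 62.3% in members and in coding genes alike. Of the 35 members, 14 had a coding gene starting on the opposite strand within their promoter, such as C2CD2L for DPAGT1, SEC61B for ALG2 and ATP7B for ALG11, against 17.7% of coding genes.

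Within 100 bp of the summits, CARE was found in 7 member regions (1.79%, coding 1.15%). Of these 5 were among the 96 with a p42 and no p30 peak in DMSO (5.21%, interval 2.24 to 11.6, coding 2.11%), in ALG1, ALG5, ALG6, DPM2 and RPN1, and none was among the 33 with the reverse pattern (coding 0.437%). The share of coding regions lies just under the lower end of that interval, which rests on 5 matches and takes no account of the other motifs searched. AP-1 was in 26 member regions (6.63%, coding 8.86%). Of the 96 regions 3 held it (3.12%, interval 1.07 to 8.79, coding 6.44%), and of the 33 also 3 (9.09%, coding 11.9%). The C/EBP palindrome was in no member region (coding 0.0836%). The unfolded protein response core was in 4 regions (1.02%, interval 0.398 to 2.59, coding 0.281%), of DHDDS, DPM3 and RPN1 (2 regions), all with a peak in every list. The RPN1 region at chr3:128650150-128650479 lay at its promoter. A match to these letters is a description and says nothing about binding.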

How the data were processed

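ATAC-seq was done on 50000 nuclei per replicate of KO-52 cells, with 12 samples in 6 conditions. Per the labels and methods, the authors used Trim Galore 0.6.6 for trimming and Bowtie2 2.4.4 for alignment to hg38. Picard served to drop duplicate reads, and MACS2 2.2.5 to call the peaks. A shift for Tn5 and a filter on mitochondrial reads are not given in the sources used here. The deposited lists hold 187704 to 254239 peaks, each called on pooled replicates, and their values are not normalised between lists. For each peak the authors deposited a score, the fold enrichment of the pileup at the summit over local background, the −log10 p and −log10 q, and the summit position. The lowest −log10 q was 1.30.

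Peaks of the 6 lists that overlapped by at least 1 bp were merged into regions, and regions were assigned to genes of GENCODE 44. Tags at the summit were solved from fold enrichment and −log10 p, and were whole within 0.001 (−log10 p) for 100% of peaks. Depth was estimated from the lowest background at an assumed genome size of 2700000000 bp, at 22249294 to 29984896 tags per list. Shares carry 95% Wilson intervals, and ratios of tags exact binomial intervals at the same level, all of which cover counting error only. Shares of regions by list, by pair of lists, in all lists or 1 list, and by role were compared with those of other coding genes that had the same number of regions. Shares of other patterns of lists (such as p42-only), places, heights and motifs were set against coding regions without matching by number of regions. Promoters were compared with all coding genes, without such a match. Fold enrichment ratios of regions were centred on the median of coding regions. Those of main promoters were centred on the median over main promoters of coding genes. The limit for naming a change was 1.5-fold. All 35 members are accounted for. Values in every list are given for DPAGT1, a promoter without a peak, regions gained or lost with Tm in all 3 lines, regions of 1 line alone, the 5 strongest variable regions and the extreme ratios.

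The members, marker lists and motifs were chosen with earlier results of these data known. Alternatives were 2 stricter thresholds on q, equal numbers of peaks, a threshold scaled to depth, a 50% overlap, other windows and promoter widths, regions of other promoters left out and, added after seeing the data, heights by tags over depth. The scripts (Python 3.11.15, numpy 2.4.6, scipy 1.17.1, pysam 0.24.0) were tested on simulated data. The sequences of 2 regions are not reported here.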

Additional observations from a re-analysis of the deposited data

Results flagged for a closer look

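The direction of change with tunicamycin differed between lines, which was not tested for want of replicates. The members had 297 regions with a peak in p42 DMSO and 245 in p42 Tm, a net change of −52. In p30 cells the numbers were 234 and 217, a net change of −17. In EV cells they were 207 and 217, a net change of 10. The estimated depth moved the same way, down with Tm in p42 and p30 cells and up in EV cells. With a threshold set as if every list had the depth of EV DMSO the net changes were −43, −10 and 10. With lists cut to equal numbers of peaks, EV cells gained 9.22% and lost 10.4% of member regions, so the sign of the EV change was turned, while p42 cells gained 10.1% and lost 13.8%.

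In 10 member regions a peak was gained in one of p42 and p30 cells and lost in the other, a difference that was likewise not tested. They were 4 of 392 regions gained in p42 (1.02%, coding 1.02%) and 6 gained in p30 (1.53%, coding 1.24%).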

How the results depend on the processing

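Of 86 alternative values for 17 results, 67 stayed near the reported value and 19 moved. These are shares and counts, which have no sign, but the balance of gain and loss with Tm in EV cells turned with equal numbers of peaks, from 10.2% gained and 7.65% lost to 9.22% and 10.4%. The count of 34 members with a promoter open in all lists was the same under every alternative run for it. With a −log10 q of at least 5 in every list, 49.0% of member regions were in all 6 lists, 20.5% had a p42 and no p30 peak in DMSO, 8.84% were lost with Tm in p30 cells and 6.83% gained in EV cells. At 10 or more, 63.5% were in all lists, 13.5% had a p42 and no p30 peak and 4.05% the reverse, while p42 cells gained 4.05% and lost 8.78%, p30 cells gained 5.41% and lost 7.43%, and EV cells gained 7.43% and lost 4.73%. With lists cut to equal numbers of peaks, the p42 and p30 shares in DMSO were 15.6% and 12.1%, and 13.8% were lost with Tm in p42 cells. With a threshold set as if every list had the depth of EV DMSO, these were 23.3%, 7.41% and 19.6%. All of these stayed near the reported values. Without regions at other promoters, 33.7% were in all lists. By tags over depth, 20 regions were past 1.5-fold with Tm in p42 cells (9 by fold enrichment) and 25 for p42 against p30 in DMSO (16). Coding regions were not counted by that measure.

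No paired analysis was possible because the deposited lists pool the replicates, and for the same reason leaving out a replicate was not done. The lowest summit in any list was 4 tags, and a region without a peak has no value, so its height is unknown. The cause of the values that moved was not tested, except that a stricter threshold removes weak regions, and those in a single list had a median of 6 tags. Depth and condition cannot be told apart where depth differs between lists.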

Other observations

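A further 27 genes of the pathway, such as ALG13, the partner of ALG14, the glucosyltransferases UGGT1 and UGGT2 that recheck folding, and the Golgi enzyme MGAT1, were counted by the same rules. All 27 had a promoter with a peak in all 6 lists (coding genes 75.7%), and 38.7% of their 351 regions were in all lists (coding 35.6%). With Tm they gained 9.69% and lost 17.4% of regions in p42 cells (coding 8.48% and 20.4%). They gained 8.26% and lost 12.5% in p30 cells (coding 8.10% and 14.4%), and gained 12% and lost 8.83% in EV cells (coding 11.2% and 9.67%). These coding shares were not matched by number of regions. DOLPP1, which recycles dolichol diphosphate, had a main promoter of 64 tags in p42 DMSO, 52 in p42 Tm, 63 in p30 DMSO, 61 in p30 Tm, 51 in EV DMSO and 54 in EV Tm. GFPT2, the paralog of GFPT1, was the lowest with 13, 12, 11, 11, 14 and 10 tags in the same order. MPDU1, which is needed to use dolichol-linked mannose, had 25 and 17 tags in p42, 28 and 18 in p30, and 26 and 29 in EV cells in DMSO and Tm.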
